A study of Homo sapiens with 14 samples.

Results

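Catecholamine genes were examined in CHP-134, an established human neuroblastoma cell line with amplified MYCN, as the genes listed under the symbols TH, DBH, DDC, GCH1, SLC18A1, SLC18A2, SLC6A2, MAOA and MAOB. All 9 were found, 9 of the 19726 gene identifiers in the count tables of the study, and the rule that lists them uses symbols and no measured value, although earlier results of these data were known when they were chosen. The RNA-seq data comprise 14 libraries from a pair of experiments in this line. In the first, CHP-134 cells were engineered with a doxycycline-inducible lentiviral vector (Tet-On) for EGFP, a fluorescent protein used as control (n = 3), or for OmoMYC, an altered bHLH-ZIP domain of MYC that interferes with the binding of MYC proteins to MAX and to DNA (n = 3). Both engineered lines grew in tetracycline-approved serum and received doxycycline at 1 µg/ml for 3 days, so doxycycline and the vector are common to these groups. They are separately engineered lines, and differences between the lines cannot be told apart from OmoMYC. In the second experiment, parental CHP-134 cells in normal serum received 500 nM dTAG47 (n = 4) or its solvent DMSO (n = 4) for 18 h. dTAG47 bridges proteins fused to an FKBP12(F36V) tag and a ubiquitin ligase, and parental cells carry no tagged protein, so this experiment measures the compound alone. The paper describes the libraries of each group as biological replicates.

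Catecholamines are made from tyrosine in the sympathetic nervous system and the adrenal medulla, the lineage from which neuroblastoma arises. Tyrosine hydroxylase (TH) makes L-DOPA in the rate-limiting step and needs tetrahydrobiopterin, whose synthesis begins with GTP cyclohydrolase (GCH1). DOPA decarboxylase (DDC) then gives dopamine, and dopamine beta-hydroxylase (DBH), an enzyme inside secretory vesicles, gives noradrenaline. The vesicular monoamine transporters VMAT1 (SLC18A1) and VMAT2 (SLC18A2) load the vesicles, the noradrenaline transporter (SLC6A2) takes released transmitter back up, and the monoamine oxidases MAOA and MAOB break it down at the outer mitochondrial membrane. Tumours and cell lines of this lineage differ in how much of this programme they express.

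The deposited values are counts of reads per gene. The EGFP libraries hold 28060817 to 32001315 counts, the OmoMYC libraries 29288048 to 38358128, the DMSO libraries 40861430 to 51199800 and the dTAG47 libraries 43019725 to 53451641. Levels are given as CPM, counts scaled to a library size of 1000000 after adjustment of the libraries by edgeR's TMM method. A library's floor, the level of 3 counts, was 0.0561 to 0.107 CPM, and it covers counting error only. Each experiment was tested on its own table, in which 13803 and 14470 genes passed edgeR's filter on low counts. Changes were tested with edgeR's quasi-likelihood test and Benjamini-Hochberg adjustment over all tested genes, and a gene with an adjusted p-value (FDR) below 0.05 is called. MYC, on whose row reads of the OmoMYC transgene can be counted, averaged 0.610 ± 0.0684 CPM in EGFP libraries and 522 ± 7.85 CPM in OmoMYC libraries (SD, n = 3 each). Of 7 transcription factors of noradrenergic neuroblastoma used as markers, 6 were well expressed in every EGFP and OmoMYC library, with HAND2 at 240 to 288 CPM, whereas TFAP2B was at or under 0.0716 CPM.

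With OmoMYC, RNA of the enzymes at the start and the end of noradrenaline synthesis rose: TH was 3.16-fold and DBH 2.81-fold higher than with EGFP. DDC, the enzyme between them, had a log2 fold change of 0.50 in the same direction (adjusted p = 0.0581, edgeR's test). MAOB was 4.0-fold higher, while GCH1, the source of the TH cofactor, fell by 43.0%. DDC, SLC18A2, SLC6A2 and MAOA were not called, and SLC18A1 was too low to test. Of the 8 members tested, 3 were thus called higher and 1 lower, where 53.0% of all tested genes were called, 27.3% higher and 25.7% lower. TH, DBH and MAOB had means of at most 1.16 CPM with OmoMYC, and they passed the filter on low counts only because of the OmoMYC libraries, so the count of members called higher is a description. The OmoMYC and EGFP libraries did not overlap for 6 of the 8 members, beside 62.3% of all tested genes. TH, DBH and MAOB are among these 6, so this count is a description too. In bulk RNA, a change in the number of cells that express a gene and a change per cell cannot be told apart. In parental cells, 0 of 7 tested members were called with dTAG47 by edgeR or by DESeq2 (2 had an unadjusted p below 0.05 in either), where 0.159% of all tested genes were called, 0.117% higher and 0.0415% lower. The libraries of the parental groups overlapped for all 7 members, and they did not overlap for 3.34% of all tested genes. When a factor for replicates 1 and 2 against 3 and 4 was added, GCH1 was called, as given below.

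**Figure D1:**
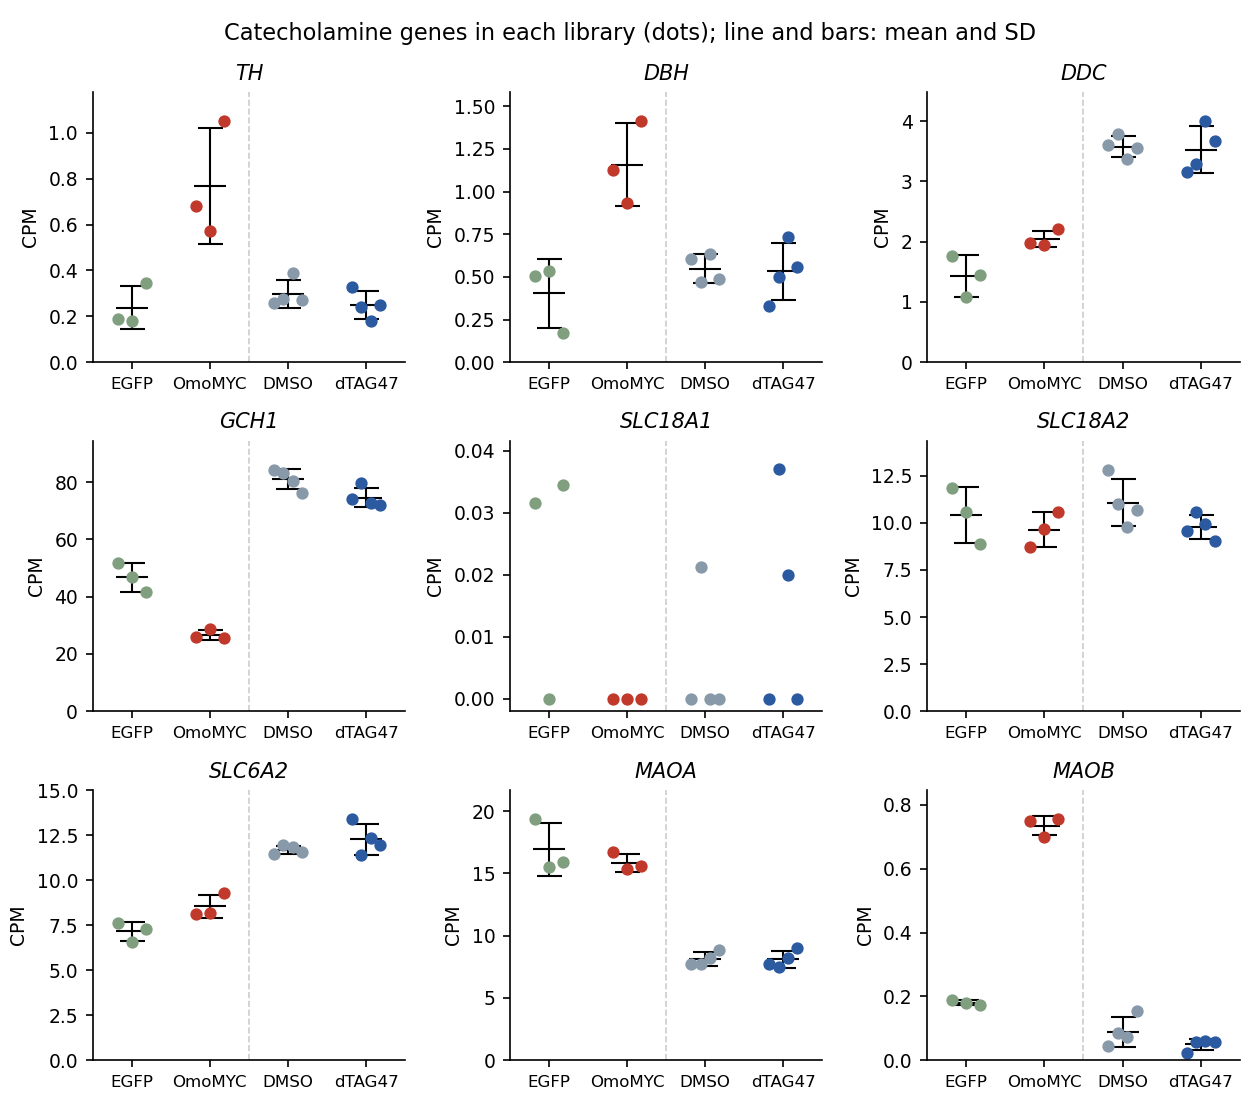
Level of each catecholamine gene in CPM (counts per 1000000, linear axis) in every library, by group, with horizontal lines for the mean and bars for the SD of 3 (EGFP, OmoMYC) or 4 (DMSO, dTAG47) libraries and a dashed line between the experiments, which were scaled separately. SLC18A1 is shown without mean or SD because no library has more than 2 counts; TH, DBH and MAOB lie higher and GCH1 lower in every OmoMYC library than in any EGFP library.

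TH (ENSG00000180176.10, chromosome 11 of hg19 from 2185159 to 2193045, minus strand) was barely counted in these cells. The EGFP replicates 1, 2 and 3 held 6, 5 and 10 counts of TH (0.189, 0.179 and 0.344 CPM) and the OmoMYC replicates 20, 22 and 32 (0.682, 0.571 and 1.05 CPM). Every OmoMYC library was above every EGFP library, and OmoMYC replicate 3 was the highest. The mean TH level went from 0.238 ± 0.0926 to 0.768 ± 0.252 CPM (SD, n = 3 each). The log2 fold change was 1.66 (standard error 0.42, 95% interval 0.73 to 2.59, adjusted p = 0.00500, edgeR's quasi-likelihood test with Benjamini-Hochberg adjustment). The filter required 0.337 CPM in at least 3 libraries, which 1 of 3 EGFP libraries and 3 of 3 OmoMYC libraries reached, so TH would not have been tested had it not been higher with OmoMYC. In parental cells the TH counts were 12, 13, 16 and 14 with DMSO and 14, 13, 9 and 13 with dTAG47, and the groups overlapped. The log2 fold change of TH with dTAG47 was -0.26 (standard error 0.30, 95% interval -0.90 to 0.38, adjusted p = 0.795), and the interval runs from 0.537 to 1.30 times the DMSO level.

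DBH (ENSG00000123454.6, chromosome 9 from 136501485 to 136524451, plus strand), which turns dopamine into noradrenaline, was counted 16, 15 and 5 times in the EGFP libraries (0.505, 0.537 and 0.172 CPM). The OmoMYC libraries held 33, 36 and 43 counts of DBH (1.13, 0.934 and 1.41 CPM). All OmoMYC libraries were above all EGFP libraries, and EGFP replicate 3 was the lowest of the 6. DBH rose from 0.405 ± 0.202 to 1.16 ± 0.242 CPM (SD, n = 3 each), which is 1.49 on the log2 scale (standard error 0.37, 95% interval 0.67 to 2.31, adjusted p = 0.00508). Only 2 of 3 EGFP libraries reached the filter's 0.337 CPM, and the gene was kept through the OmoMYC libraries. With each library left out in turn, the log2 fold change stayed between 1.10 and 1.70 for DBH and between 1.34 and 1.99 for TH. Both were called each time, which is a description, since the main filter kept both through the OmoMYC libraries. In parental cells DBH had 28, 22, 26 and 25 counts with DMSO and 14, 27, 37 and 29 with dTAG47. dTAG47 replicates 1 and 3 were the lowest and the highest of these 8 libraries, and the log2 fold change was -0.02 (95% interval -0.55 to 0.51, adjusted p = 0.984).

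Promoter sequences are shown for a synthesis gene that rose (DBH), a breakdown gene that rose (MAOB) and a storage gene that was not called (SLC18A2), to set the differing changes beside the DNA ahead of each gene. They are the 250 bases before the start of the gene on the gene's sense strand, from RefSeq on GRCh38.p14, the build of the promoter table and not that of the counts. Of the 9 genes, DBH, DDC, SLC18A2, MAOA and MAOB were matched. Capitals mark matches, on both strands, to CACGTG (the E-box bound by MYC and MAX), TGACGTCA and its part TGACG (the cyclic AMP response element and its shorter form), ATTA (the core of homeodomain sites), GGGCGG (the GC box) and TATAAA (the TATA box). Matches may overlap, and each TGACGTCA also counts as TGACG.
DBH, chr9:133636113-133636362, plus strand: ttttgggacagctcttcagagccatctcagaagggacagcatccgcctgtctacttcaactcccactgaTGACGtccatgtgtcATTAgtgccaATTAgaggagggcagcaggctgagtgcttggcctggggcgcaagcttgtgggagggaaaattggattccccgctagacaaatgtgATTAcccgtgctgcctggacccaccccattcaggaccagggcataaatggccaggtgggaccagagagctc
MAOB, chrX:43882451-43882700, minus strand: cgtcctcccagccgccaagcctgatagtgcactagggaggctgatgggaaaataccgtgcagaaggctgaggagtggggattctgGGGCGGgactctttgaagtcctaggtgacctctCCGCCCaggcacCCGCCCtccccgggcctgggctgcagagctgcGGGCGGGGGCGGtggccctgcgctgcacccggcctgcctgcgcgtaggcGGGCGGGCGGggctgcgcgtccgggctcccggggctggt
SLC18A2, chr10:117240864-117241113, plus strand: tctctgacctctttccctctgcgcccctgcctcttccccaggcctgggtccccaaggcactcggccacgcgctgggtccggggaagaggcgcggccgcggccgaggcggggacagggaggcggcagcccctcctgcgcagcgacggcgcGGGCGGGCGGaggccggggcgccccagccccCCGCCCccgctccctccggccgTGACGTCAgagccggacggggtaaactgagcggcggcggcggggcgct
CACGTG was matched in 0 of the 6 promoter windows of these 5 genes (DDC has a pair of entries), and 6.31% of the 34788 promoters in the table hold it. The DBH window has ATTA 3 times, beginning at positions -166, -156 and -71 from the start of the gene, and TGACG at -181. Over all promoters, 47.5% hold ATTA and 21.2% hold TGACG. The MAOB window has GGGCGG 7 times and neither ATTA nor TGACG, and GGGCGG is in 42.6% of all promoters. The SLC18A2 window has GGGCGG 3 times and TGACGTCA at -48, which 1.64% of all promoters hold. Of the windows not shown, those of DDC have ATTA 4 times and 1 time, and that of MAOA has GGGCGG 4 times and ATTA 1 time. DDC and MAOA were not called with OmoMYC. These matches describe letters only, and binding was not measured.

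GCH1 (ENSG00000131979.14, chromosome 14 from 55308726 to 55369544, minus strand) was the most expressed member and the only one called lower. The EGFP libraries held 1644, 1310 and 1205 counts of GCH1 (51.9, 46.9 and 41.5 CPM), and the OmoMYC libraries 759, 1100 and 774 (25.9, 28.5 and 25.4 CPM). The groups were far apart, with the highest OmoMYC library well below the lowest EGFP library. GCH1 fell from 46.7 ± 5.18 to 26.6 ± 1.67 CPM (SD, n = 3 each), which is -0.81 on the log2 scale (standard error 0.10, 95% interval -1.02 to -0.60, adjusted p = 8.36e-05). It was called with every library left out in turn and under every other alternative run, with log2 fold changes from -0.92 to -0.75. In parental cells GCH1 stood at 84.3, 83.2, 80.5 and 76.3 CPM with DMSO and at 74.2, 79.5, 72.7 and 71.9 CPM with dTAG47. The groups overlapped in dTAG47 replicate 2 and DMSO replicate 4, and the means were 81.1 ± 3.54 and 74.6 ± 3.42 CPM (SD, n = 4 each). The log2 fold change with dTAG47 was -0.12 (standard error 0.05, 95% interval -0.22 to -0.02), and it was not called (adjusted p = 0.673). Over all genes, the DMSO libraries fell into pairs: the chi-square per degree of freedom was 2.68 between replicates 1 and 2, 3.22 between replicates 3 and 4, and 9.03 to 11.7 across these pairs. By this measure the dTAG47 libraries did not pair in the same way. The values were 2.70 between replicates 3 and 4 but 8.48 between replicates 1 and 2, beside 5.87 to 23.3 across. The treatments did share this split when each library's deviations from its group mean were correlated. Between DMSO and dTAG47 libraries the correlations were 0.0093 to 0.247 within the split and -0.226 to -0.0191 across it. No label names a batch. With a factor for replicates 1 and 2 against 3 and 4 the log2 fold change of GCH1 was again -0.12 and was called (adjusted p = 0.0269), one of 794 genes called in that fit. Replicates 1 and 2 alone gave -0.11 (adjusted p = 0.719), and replicates 3 and 4 alone gave -0.12 (adjusted p = 0.0571).

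DDC (ENSG00000132437.13, chromosome 7 from 50526134 to 50633102, minus strand) serves both catecholamine and serotonin synthesis. It had 56, 30 and 42 counts in the EGFP libraries (1.77, 1.07 and 1.45 CPM) and 58, 75 and 67 in the OmoMYC libraries (1.98, 1.95 and 2.20 CPM). The OmoMYC libraries were all above the EGFP libraries, by a small margin over EGFP replicate 1. The log2 fold change of DDC was 0.50 (standard error 0.20, 95% interval 0.05 to 0.96), and it was not called (adjusted p = 0.0581). Without EGFP replicate 1 it was 0.67 and was called (adjusted p = 0.0196), and over all 14 alternatives the adjusted p ranged from 0.0196 to 0.238. The parental libraries held 138 to 183 counts of DDC with DMSO and 134 to 201 with dTAG47, or 3.58 ± 0.171 and 3.53 ± 0.385 CPM (SD, n = 4 each). The groups overlapped fully, with a log2 fold change of -0.02 (95% interval -0.23 to 0.20, adjusted p = 0.959).

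**Figure D2:**
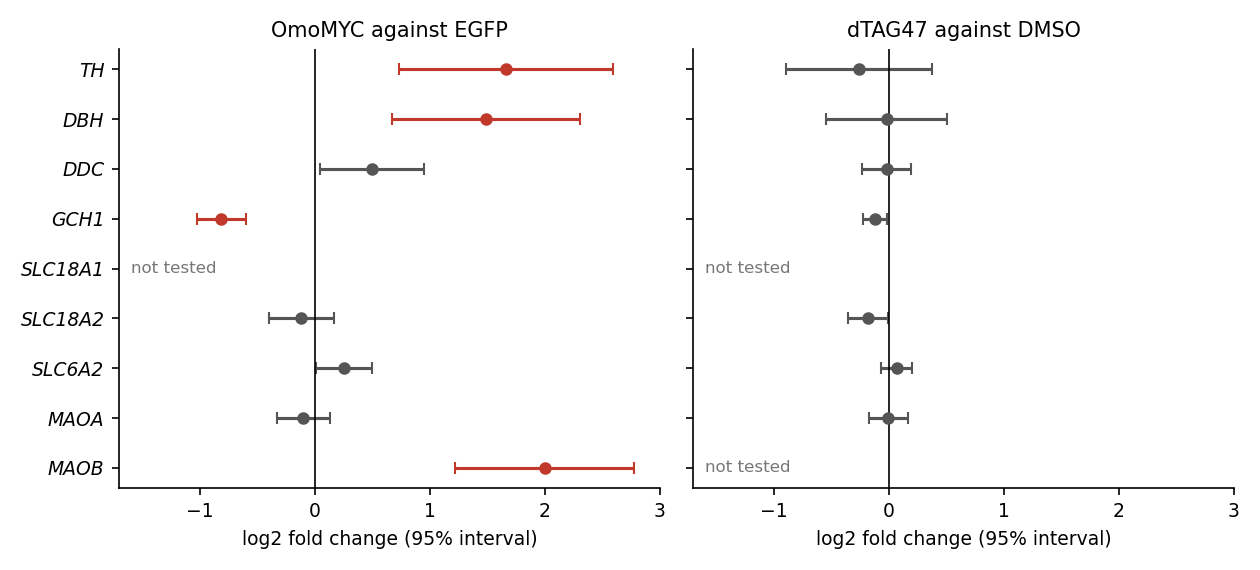
Log2 fold change of each catecholamine gene (dot) with its 95% interval (bar) for OmoMYC against EGFP and for dTAG47 against DMSO, from edgeR's fit, with genes called at an FDR below 0.05 in red. TH (1.66), DBH (1.49) and MAOB (2.00) were called higher and GCH1 (-0.81) lower with OmoMYC, while 0 genes were called with dTAG47.

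None of the storage and uptake genes was called with OmoMYC in edgeR's test. SLC18A2 (ENSG00000165646.7, chromosome 10 from 119000604 to 119038941, plus strand), the vesicular transporter of neurons, had 376, 295 and 258 counts with EGFP (11.9, 10.6 and 8.88 CPM) and 255, 373 and 321 with OmoMYC (8.69, 9.68 and 10.6 CPM). These libraries overlapped, and the log2 fold change of SLC18A2 was -0.11 (standard error 0.13, 95% interval -0.40 to 0.17, adjusted p = 0.468). In parental cells it stood at 12.8, 11.0, 9.81 and 10.7 CPM with DMSO and at 9.57, 10.6, 9.93 and 9.02 CPM with dTAG47. DMSO replicate 1 was the highest library, the groups overlapped, and the log2 fold change was -0.18 (95% interval -0.35 to -0.01, adjusted p = 0.673). In the GENCODE annotation lifted to GRCh37, 2157 of the 4125 exonic bases of SLC18A2 are also exonic in PDZD8 on the opposite strand. The strand setting of the counting is not given in the sources used here, so reads of these genes may not have been told apart there. PDZD8 averaged 73.0 CPM in EGFP and 66.4 CPM in OmoMYC libraries (log2 fold change -0.14, adjusted p = 0.133), and 69.2 and 67.5 CPM with DMSO and dTAG47.

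SLC18A1 (ENSG00000036565.10, chromosome 8 from 20002366 to 20040717, minus strand), the transporter typical of endocrine chromaffin cells, was at or under 2 counts in all 14 libraries. It had 1, 0 and 1 counts with EGFP, 0 in each OmoMYC library, 0, 1, 0 and 0 with DMSO and 0, 2, 1 and 0 with dTAG47. These counts are below the floor of 3 counts, and a level under 0.0561 to 0.107 CPM, depending on the library, was not detectable. No fold change is given for it.

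SLC6A2 (ENSG00000103546.14, chromosome 16 from 55689900 to 55741557, plus strand), which ends noradrenaline signalling by reuptake, had 241, 184 and 211 counts with EGFP (7.60, 6.59 and 7.27 CPM). It had 239, 316 and 282 counts with OmoMYC (8.15, 8.20 and 9.27 CPM). Each OmoMYC library lay above each EGFP library. The log2 fold change of SLC6A2 was 0.25 (standard error 0.11, 95% interval 0.01 to 0.50), and it was not called (adjusted p = 0.0738). The adjusted p ranged from 0.0545 to 0.317 over all 14 alternatives. In parental cells SLC6A2 stood at 11.4, 11.9, 11.8 and 11.5 CPM with DMSO and at 13.4, 11.4, 12.3 and 12.0 CPM with dTAG47. The groups overlapped through dTAG47 replicate 2, and the log2 fold change was 0.07 (95% interval -0.07 to 0.20, adjusted p = 0.753). An unnamed gene of the annotation (ENSG00000278928) shares 2304 of the 8043 exonic bases of SLC6A2 on the same strand.

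The monoamine oxidases lie beside each other on the X chromosome, and with OmoMYC MAOB rose while MAOA was not called. MAOA (ENSG00000189221.5, from 43514155 to 43606064, plus strand), the form that prefers noradrenaline and serotonin, had 614, 434 and 461 counts with EGFP (19.4, 15.5 and 15.9 CPM) and 489, 591 and 473 with OmoMYC (16.7, 15.3 and 15.6 CPM). The groups overlapped, and the log2 fold change of MAOA was -0.10 (standard error 0.10, 95% interval -0.33 to 0.13, adjusted p = 0.458). MAOB (ENSG00000069535.12, from 43625857 to 43741696, minus strand) had 6, 5 and 5 counts with EGFP (0.189, 0.179 and 0.172 CPM) and 22, 27 and 23 with OmoMYC (0.750, 0.701 and 0.756 CPM). The groups did not overlap. The libraries of each group lay closer together than counting error alone gives on average for such low counts, so their SD understates the uncertainty. MAOB rose from 0.180 ± 0.00859 to 0.736 ± 0.0305 CPM (SD, n = 3 each), which is 2.00 on the log2 scale (standard error 0.35, 95% interval 1.22 to 2.78, adjusted p = 0.000493). None of the 3 EGFP libraries reached the filter's 0.337 CPM, so MAOB too was tested because of its level with OmoMYC. Per length of the canonical transcript, there were 56.7 to 66.9 MAOA reads for each MAOB read in the EGFP libraries and 13.4 to 14.5 in the OmoMYC libraries. The log2 ratio went from 5.94 ± 0.12 to 3.82 ± 0.06 (SD, n = 3 each). With the union of annotated exons, MAOA and MAOB stood at 1.30 and 0.0622 CPM per kilobase with EGFP. With OmoMYC they stood at 1.22 and 0.254. The size of the ratio thus depends on the length used, while its log2 change does not. This ratio is a description, since an exact 2-sided permutation test of 3 libraries against 3 cannot give a p below 0.1.

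In parental cells MAOA had 358, 363, 335 and 456 counts with DMSO and 327, 402, 413 and 468 with dTAG47, or 8.12 ± 0.531 and 8.10 ± 0.701 CPM (SD, n = 4 each). Replicate 4 was the highest library of both groups, and the log2 fold change of MAOA was -0.00 (95% interval -0.17 to 0.17, adjusted p = 0.994). MAOB had 2, 4, 3 and 8 counts with DMSO and 1, 3, 3 and 3 with dTAG47. It did not pass the filter, the dTAG47 libraries were at or under the floor of 3 counts, and no fold change is given.

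Levels of different genes were compared as RPKM, the CPM per kilobase of the Ensembl canonical transcript. In EGFP cells GCH1 was highest at 16.0 RPKM, above 68.9% of tested genes, followed by MAOA at 4.31, SLC18A2 at 2.72, SLC6A2 at 1.21 and DDC at 0.710 RPKM. The place of SLC18A2, here and in parental cells, carries the limit given above for the bases it shares with PDZD8. DBH at 0.147 and TH at 0.130 RPKM overlapped between libraries, with TH above only 3.88% of tested genes, and MAOB followed at 0.0701 RPKM. GCH1, which supplies the cofactor, was thus far above TH, which uses it. In OmoMYC cells the order of the members stayed as in EGFP cells, from GCH1 at 9.13 RPKM to MAOB at 0.286 RPKM, and DBH (0.422 RPKM) and TH (0.421 RPKM) again overlapped. Between neighbours in this order other than DBH and TH, the libraries did not overlap in either group. The lower end depends on the length used: with the union of all annotated exons, TH (0.0747 RPKM) and MAOB (0.0622 RPKM) overlapped with EGFP, and MAOB (0.254 RPKM) stood above TH (0.242 RPKM) with OmoMYC, again with overlap.

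Parental cells were scaled in a separate table and differ in line, serum and doxycycline, so their levels are given side by side with no test. With DMSO, GCH1 was at 27.8 RPKM, SLC18A2 at 2.89, MAOA at 2.06, SLC6A2 at 1.97 and DDC at 1.78 RPKM. MAOA and SLC6A2 overlapped between these libraries, as did DBH (0.200 RPKM) and TH (0.164 RPKM). With dTAG47, SLC6A2 (2.07 RPKM), MAOA (2.06 RPKM) and DDC (1.75 RPKM) overlapped with their neighbours, and GCH1 was at 25.6 RPKM. MAOA stood second in the engineered lines and level with SLC6A2 in parental cells. Its place depends on the length too: with the union of exons, which for MAOA holds 13010 bases against 3931 in the canonical transcript, MAOA was at 1.30 RPKM with EGFP, below SLC18A2, and at 0.624 RPKM with DMSO, below DDC.

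**Figure D3:**
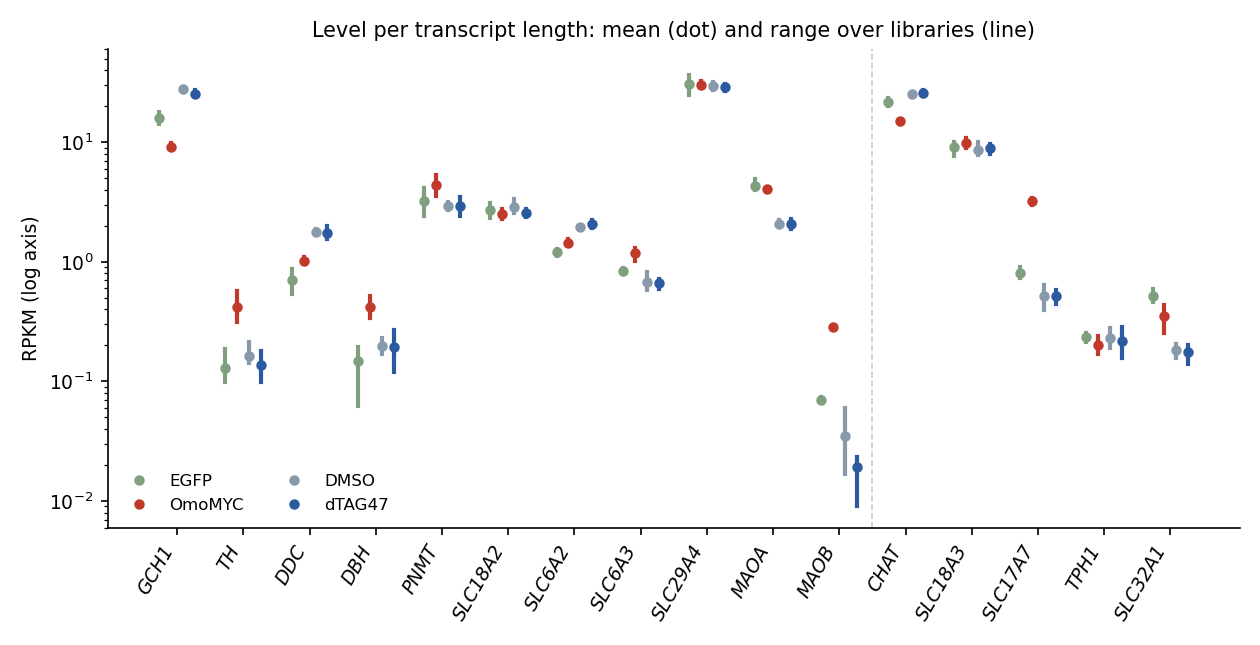
RPKM (CPM per kilobase of the canonical transcript, log axis) of catecholamine genes, to the left of the dashed line, and of genes of other transmitters, to its right; dots are means and lines the range over the libraries of each group. TH and DBH lie below 1 RPKM in every library, while CHAT (21.9 RPKM with EGFP) and SLC29A4 (30.8 RPKM) lie well above them; SLC18A1 is left out because it has libraries at 0.

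Some other genes of amine handling were higher per length than TH and DBH, and others were not. PNMT, which makes adrenaline, was at 3.25 RPKM with EGFP and 2.93 RPKM with DMSO. SLC29A4, a low-affinity monoamine transporter of the plasma membrane, was at 30.8 and 29.3 RPKM, and the dopamine transporter SLC6A3 at 0.834 and 0.683 RPKM. The serotonin transporter SLC6A4 was lower, at 0.0878 RPKM with EGFP and 0.0717 RPKM with DMSO. Among genes of other transmitters, CHAT, which makes acetylcholine, was at 21.9 RPKM with EGFP and 25.1 RPKM with DMSO, and SLC18A3, the vesicular acetylcholine transporter, at 9.06 and 8.56 RPKM. The other 11 genes of this list in each experiment were far lower, at 0 to 0.809 RPKM with EGFP and 0 to 0.525 RPKM with DMSO. Of these 11, 7 lay below TH in either group. The sets differ by a gene, as SLC5A7 was listed only with EGFP and OmoMYC and GAD2 only in parental cells. SLC5A7, which takes up choline, had 0 counts with EGFP, and GAD1, which makes GABA, was at 0.106 RPKM. With OmoMYC, CHAT fell from 116 ± 9.22 to 79.1 ± 3.82 CPM (log2 fold change -0.55, adjusted p = 0.000281), whereas SLC18A3 (0.12) was not called (adjusted p = 0.389). SLC17A7, a vesicular glutamate transporter, rose from 2.39 ± 0.254 to 9.50 ± 0.580 CPM (log2 fold change 2.00), and ACHE, which breaks down acetylcholine, rose by a log2 fold change of 1.01. Of 6 tested genes of other transmitters, 2 rose and 1 fell, with a median log2 fold change of -0.04 beside 0.01 over all tested genes. Over all tested genes, 27.3% were called higher and 25.7% lower.

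Tetrahydrobiopterin is made from the product of GCH1 and regenerated after each use by TH. Of 6 other genes of its synthesis and recycling, 2 rose and 0 fell with OmoMYC, with a median log2 fold change of 0.23. The shares over all tested genes were 27.3% called higher and 25.7% lower. GCHFR, the feedback regulator of GCH1, rose from 6.37 ± 1.04 to 9.73 ± 0.638 CPM (log2 fold change 0.61, adjusted p = 0.00303), though 1149 of its 1481 exonic bases are shared with DNAJC17 on the opposite strand. QDPR, which regenerates the cofactor after use, rose from 40.7 ± 1.70 to 55.3 ± 1.19 CPM (0.44, adjusted p = 0.000570). The synthesis enzymes PTS (-0.12, adjusted p = 0.454) and SPR (0.25, adjusted p = 0.0546) and the recycling enzyme PCBD1 (0.21, adjusted p = 0.0540) were not called in edgeR's test or by DESeq2, and limma-voom called PCBD1 (adjusted p = 0.0494).

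Of 13 other enzymes of catecholamine metabolism, 2 rose and 4 fell with OmoMYC, with a median log2 fold change of -0.03. The shares over all tested genes were again 27.3% higher and 25.7% lower. ALDH1A1, an aldehyde dehydrogenase, fell from 4.20 ± 0.143 to 1.29 ± 0.361 CPM (-1.71), and MOXD1, a relative of DBH, from 1.38 ± 0.164 to 0.707 ± 0.166 CPM (-0.97). ALDH7A1 (-0.34) and AKR1A1 (-0.27) fell less. PDXK, which makes the pyridoxal phosphate that DDC needs, rose by 0.39, and SULT1A1, a phenol sulfotransferase, by 1.74 from 0.153 CPM, a level near the floor in a family of near-identical genes. PNMT (0.43, adjusted p = 0.105) and CYB561 (0.33, adjusted p = 0.0664), the cytochrome that supplies electrons for DBH in vesicles, were not called.

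Among 4 other amine transporters tested, SLC6A3 rose from 3.29 ± 0.179 to 4.65 ± 0.572 CPM (log2 fold change 0.50, adjusted p = 0.0115), and SLC29A4 (-0.02) was not called. Of 15 tested genes of the proton pump that drives vesicular uptake, 5 rose and 0 fell, with a median log2 fold change of 0.08. Beside these lists, 27.3% of all tested genes were called higher and 25.7% lower. ATP6V0E2 (0.95), ATP6V0D1 (0.76) and ATP6V0B (0.49) rose most, and ATP6V0A1 (0.29) and ATP6V1F (0.21) were the others. None of the 5 tested receptors was called by edgeR or DESeq2. ADRB1 (-0.95, adjusted p = 0.0515) had an unadjusted p below 0.05 in edgeR's test, and the others had log2 fold changes of 0.00 for DRD2, 0.02 for ADRA2A, 0.04 for ADRA2C and 0.11 for DRD4. The other 9 of the 14 receptor genes did not pass the filter.

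**Figure D4:**
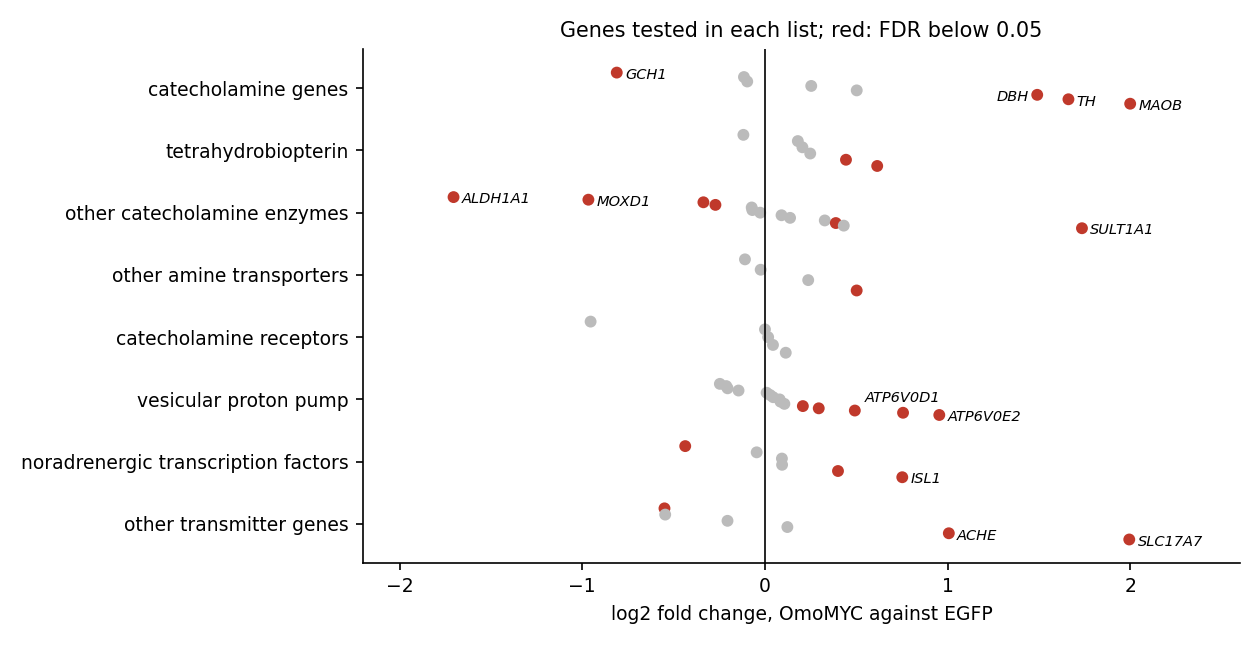
Log2 fold change with OmoMYC against EGFP for each tested gene of the catecholamine genes and 7 related lists, 1 row of dots per list, with genes called at an FDR below 0.05 in red and called genes past 0.7 in either direction named. The lists hold genes called in both directions or in neither, except the tetrahydrobiopterin genes (2 rises), the proton pump (5 rises) and the other amine transporters (1 rise). Among all tested genes, 27.3% were called higher and 25.7% lower.

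The transcription factors that mark noradrenergic cells had smaller log2 fold changes than TH and DBH. This comparison is a description, since TH and DBH had few counts with EGFP and the filter kept them through the OmoMYC libraries. PHOX2A (-0.05), HAND2 (0.09) and GATA3 (0.09) were not called. ISL1 rose from 30.0 ± 1.70 to 50.5 ± 1.53 CPM (0.75) and GATA2 by 0.40, while INSM1 fell from 117 ± 11.7 to 86.8 ± 6.21 CPM (-0.44). Thus 2 of 6 tested factors rose and 1 fell, with a median log2 fold change of 0.09, where 27.3% of all tested genes rose and 25.7% fell. The summed level of the 7 factors was 853 to 1031 CPM with EGFP and 989 to 1076 CPM with OmoMYC, so the groups overlapped. For 10 markers of mesenchymal neuroblastoma cells the sum was 465 to 504 CPM with EGFP and 382 to 389 CPM with OmoMYC. Most of this sum came from TWIST1, at means of 283 and 211 CPM, and VIM, at 136 and 110 CPM. CD44, at 3.11 and 10.3 CPM, added little to it. Of the 8 tested, CD44 rose (1.73) and YAP1 (-1.10), TWIST1 (-0.42) and VIM (-0.31) fell. For 7 Schwann and glial markers the sums were 3.54 to 4.82 and 4.16 to 4.70 CPM, with FOXD3 higher (0.62), PMP22 lower (-0.80), and SOX10 at 0.855 and 0.851 CPM, and DESeq2 called none of these markers. The part of these shifts in the changes of TH, DBH, MAOB and GCH1 was not tested.

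In parental cells, 0 genes of these lists were called with dTAG47 in edgeR's quasi-likelihood test without a factor for replicates. Over all genes 23 of 14470 were called and 1053 had an unadjusted p below 0.05, and DESeq2 called 59 genes. DESeq2 called 0 genes of these lists as well. Outside the members, 1 list gene had an unadjusted p below 0.05 in each tool, and in edgeR's fit this was the glial filament gene GFAP (0.159 CPM with DMSO and 0.323 CPM with dTAG47, adjusted p = 0.600). The summed level of the 7 Schwann and glial markers was 3.87 to 4.35 CPM with DMSO and 3.66 to 4.58 CPM with dTAG47. The cofactor genes QDPR (0.06), PTS (-0.09), SPR (0.01), PCBD1 (-0.01) and GCHFR (0.19) were not called, nor was CYB561 (0.05). The factors PHOX2A (0.06), HAND2 (0.01), GATA2 (0.08), GATA3 (0.02) and ISL1 (0.06) were not called either. Among the members, GCH1 and SLC18A2 had unadjusted p-values below 0.05, of 0.0245 and 0.0441, in edgeR's fit. The difference in the dTAG47 effect between replicates 1 and 2 and replicates 3 and 4 was tested as an interaction, and it was not called for any of the 7 tested members (adjusted p = 1.00).

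The genes whose pattern was most like that of SLC18A2 were sought by Pearson's correlation of log2 CPM over the 14 libraries, among 13424 genes that passed the filter in both tables. TH and DBH averaged 0.373 and 0.646 CPM and were left out of this search, which asked for 1 CPM. The genes most like SLC18A2 were TASP1 (r = 0.907), TMEM245 (0.898), CCDC7 (0.892), LRRC69 (0.883) and UGGT2 (0.869). The limit on SLC18A2 counts from the bases shared with PDZD8 holds for this search too. The libraries of each experiment share a table, a line and a serum, so these values describe the 14 libraries and carry no test. With OmoMYC their log2 fold changes were -0.07 for TASP1, -0.07 for TMEM245, -0.39 for CCDC7, -0.45 for LRRC69 and -0.28 for UGGT2 (adjusted p = 0.0738 to 0.691). With dTAG47 they were -0.20, -0.09, -0.25, -0.28 and -0.20 in the same order (adjusted p = 0.673 to 0.708), and none was called in edgeR's test in either experiment.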

How the data were processed

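RNA was extracted with Trizol and a Direct-zol kit, and libraries were made after depletion of ribosomal RNA and sequenced on a NovaSeq6000. Per the paper and the submitters' processing notes, reads were trimmed with Cutadapt, aligned to hg19 with STAR and counted per gene with FeatureCounts. The deposited values are these whole-number counts, without normalization, in 1 table per experiment. Tool versions, the annotation, the strand setting and the handling of reads with several matches are not given in the sources used here. Groups and replicate numbers came from the sample titles. The members and gene lists were chosen with earlier results of these data known.

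From the counts, edgeR 4.0.16 (R 4.3.3) was run in each experiment with filterByExpr, TMM scaling and the robust quasi-likelihood test, and p-values were adjusted by the Benjamini-Hochberg method over all tested genes (FDR threshold 0.05). Intervals (95%) come from the same fit. DESeq2 1.42.0, which the authors used, and limma-voom (limma 3.58.1) were alternatives, with other scalings, filters, a replicate block, a factor for replicates 1 and 2 against 3 and 4, and leaving out each library. RPKM used canonical transcripts of the GENCODE annotation lifted to GRCh37, and the union of exons was added after the data were seen. Genes named from the lists are those called with the largest rises and falls, up to 3 each way in lists of over 8 genes, with fixed cofactor, enzyme and factor genes. ADRB1, DRD2, ADRA2A, ADRA2C, DRD4, PNMT, SLC29A4, SLC18A3, AKR1A1, ATP6V0A1, ATP6V1F, SOX10, GFAP and the per-length values were chosen after their values were seen. Replicate libraries differed by chi-squares of 2.68 to 44.3 per degree of freedom, so no library was a duplicate. Among the EGFP libraries replicate 1 stood apart, at 22.1 from replicate 2 and 44.3 from replicate 3, beside 8.3 between replicates 2 and 3. The fits were tested on simulated data in which 200 genes were changed. edgeR recovered 153 of them in the OmoMYC setting, with 5.56% of calls false, and 184 in the dTAG47 setting, with 8.46% false. DESeq2 had 6.06% and 12.6% of calls false. The simulation held a smaller share of changed genes than the 53.0% called with OmoMYC. ATP6AP1 and ATP6V1G2 were left out of the OmoMYC comparison because their symbols stand under several identifiers. Some genes of the lists are not reported here and were left out of the lists. PDPK1 depletion was not analysed here.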

Additional observations from a re-analysis of the deposited data

Results flagged for a closer look

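In groups of 4 libraries, a library was looked at again where its gap to the nearest other library took most of the group's range (Dixon's 95% critical value). This was the case in 3 of 18 groups checked. Chance gives about 1 in 20 for continuous values, which does not apply to the cases of MAOB and SLC18A1, where libraries hold 0 to 3 counts and are tied or nearly so. TH in DMSO replicate 3 was at 0.390 CPM, with the other DMSO libraries at 0.259 to 0.276 CPM. MAOB in dTAG47 replicate 1 was at 0.0235 CPM, or 1 count, with the others at 0.0557 to 0.0597 CPM. SLC18A1 in DMSO replicate 2 was at 0.0212 CPM, also 1 count, with 0 in the others.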

How the results depend on the processing

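TH, DBH and MAOB were called higher with OmoMYC in all 13 alternatives that tested them, and GCH1 lower in all 14. For TH, DBH and MAOB this count is a description. The main filter kept them through the OmoMYC libraries, and most alternatives filter in the same way. With at least 10 counts in every library, 5 members were tested and 1 was called (0 higher), because TH, DBH and MAOB have fewer counts with EGFP. Leaving out 1 library gave 4 to 5 called members with OmoMYC and 0 with dTAG47. Replicate numbers did not pair the libraries one by one. Same-number correlations were 0.076, -0.0697 and 0.293 with OmoMYC, and 0.0093 to 0.159 in parental cells. A replicate block in the OmoMYC experiment thus shares only a number. In parental cells it also takes in the split of replicates 1 and 2 from 3 and 4. With this block, 5 members were called with OmoMYC, DDC included (0.52, adjusted p = 0.0397), and 1 with dTAG47, which was GCH1 (-0.12, adjusted p = 0.0338), among 668 genes. The factor for replicates 1 and 2 against 3 and 4 also gave 1 member, again GCH1. Directions of uncalled dTAG47 differences turned: TH was at 0.080 in replicates 1 and 2 alone, and DBH was at 0.22, DDC at 0.14 and MAOA at 0.014 in replicates 3 and 4 alone. As single libraries were left out, the log2 fold change ranged from -0.21 to 0.13 for DBH, from -0.084 to 0.027 for DDC and from -0.059 to 0.047 for MAOA. The causes were not tested. Counts of 5 to 16 for TH, DBH and MAOB with EGFP limit the precision of their fold changes, and levels under 3 counts could not be measured.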
